A study of Mus musculus with 20 samples.

Results

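Prss34, Mcpt8, Cpa3, Ms4a2 and Fcer1a, 5 genes that mark basophils and mast cells, were followed through 20 RNA-seq libraries of mouse bone marrow neutrophils. They were found by symbol, as 5 of the 24421 genes that each library lists, and were selected on their levels in these libraries, which were already known. For that reason their levels and fold changes are given as a description. Counts of members called in the fit across all genes stand beside the share of all genes called, and nothing is read from them. There were 4 groups of 5 mice, 1 library per mouse. The 2 untreated groups, WT and Bmal1 Mye-/-, received no IMQ, and the 2 treated groups of the same genotypes received imiquimod (IMQ, a Toll-like receptor agonist) as a 5% cream on both ears, 3 times per week for 6 weeks. All mice of the study were female. The treated mice were 8 to 10 weeks old at the start (the age of the untreated mice is not given in the sources used here), and all neutrophils were taken from marrow by magnetic negative selection. WT mice were purchased C57BL/6J. Bmal1 Mye-/- mice were bred separately, with floxed Bmal1 (Arntl in the files) and Cre inserted at Lyz2, which is active in neutrophils, monocytes and macrophages. Genotype therefore goes together with origin and with the Cre allele.

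Basophils and mast cells both come from marrow progenitors and carry the high-affinity IgE receptor, which is built from an alpha chain that binds IgE (Fcer1a), a beta chain that amplifies the signal (Ms4a2) and a gamma chain that many myeloid cells share (Fcer1g). When antigen cross-links the IgE on this receptor, the cells release histamine and granule proteases. Prss34 and Mcpt8 encode serine proteases known from mouse basophils, and Cpa3 encodes a carboxypeptidase of mast cells and basophils. Mature basophils circulate in blood and are rare in marrow, while mast cells mature in tissues. Neutrophil isolation by negative selection leaves behind whatever cells the antibodies do not capture, and in such bulk RNA fewer cells of a type and less RNA per cell cannot be told apart.

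The promoters of the 3 protease genes and of Ms4a2 are shown because the correlations among the proteases were higher than those with Ms4a2, as described further on. That difference was not tested, and no link between it and the promoters is drawn. Each promoter is 300 bases around the RefSeq transcription start on GRCm38.p6, read 5′ to 3′ on the strand of the gene. They lie at chr17:25298144-25298443 (plus strand, Prss34), chr14:56085148-56085447 (minus strand, Mcpt8), chr3:20242132-20242431 (minus strand, Cpa3) and chr19:11623670-11623969 (minus strand, Ms4a2). Capitals mark the letters GATAA, the core of the motif of GATA factors, or TTATC, the same letters on the opposite strand.
Prss34: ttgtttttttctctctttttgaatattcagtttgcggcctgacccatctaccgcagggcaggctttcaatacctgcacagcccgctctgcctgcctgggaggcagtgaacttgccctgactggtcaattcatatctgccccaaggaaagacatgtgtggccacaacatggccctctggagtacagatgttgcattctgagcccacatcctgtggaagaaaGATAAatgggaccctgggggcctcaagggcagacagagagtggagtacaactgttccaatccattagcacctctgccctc
Mcpt8: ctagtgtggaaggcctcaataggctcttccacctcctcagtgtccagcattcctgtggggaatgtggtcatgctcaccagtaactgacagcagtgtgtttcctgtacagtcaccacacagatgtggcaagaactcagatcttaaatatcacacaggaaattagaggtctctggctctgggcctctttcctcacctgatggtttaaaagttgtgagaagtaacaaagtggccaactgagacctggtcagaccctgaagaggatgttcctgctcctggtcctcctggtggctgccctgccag
Cpa3: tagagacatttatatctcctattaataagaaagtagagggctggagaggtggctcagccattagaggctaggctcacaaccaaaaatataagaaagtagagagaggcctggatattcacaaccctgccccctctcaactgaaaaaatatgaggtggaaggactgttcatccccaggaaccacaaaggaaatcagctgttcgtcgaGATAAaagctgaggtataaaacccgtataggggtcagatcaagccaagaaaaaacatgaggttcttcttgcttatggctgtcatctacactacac
Ms4a2: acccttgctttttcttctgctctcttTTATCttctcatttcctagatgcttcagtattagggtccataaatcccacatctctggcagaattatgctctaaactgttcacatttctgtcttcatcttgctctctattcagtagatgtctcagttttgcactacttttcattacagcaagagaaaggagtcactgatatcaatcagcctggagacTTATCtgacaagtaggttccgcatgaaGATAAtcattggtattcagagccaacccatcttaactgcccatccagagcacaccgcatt
GATAA on either strand occurred 1 time in the Prss34 window, 1 time in that of Cpa3, 3 times in that of Ms4a2 and 0 times in that of Mcpt8. The Fcer1a window held 1 match. Of 32851 RefSeq promoters of this length, 25.4% held at least 1 match and 5.27% held 2 or more. These matches describe letters in a window and not bound sites.

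Reads on genes numbered 30782166 to 92613500 per library (median 66094896). Levels are given as CPM, the read count of a gene on the common per-library scale after TMM normalization. The libraries had the makeup of neutrophils, with S100a8 at group means of 22400 to 26500 CPM and 9 of the 10 listed neutrophil markers matched and summing to 69400 to 150000 CPM, the lowest in IMQ-treated Bmal1 Mye-/- replicate 1. Lyz2 ran from 2470 to 12000 CPM in WT and from 58.8 to 177 CPM in Bmal1 Mye-/- libraries, so every library matched its genotype label by this gene, which carries the Cre. Arntl averaged 1.35 and 0.721 CPM in untreated WT and Bmal1 Mye-/-, and 1.11 and 0.702 CPM with IMQ, with overlapping libraries. IMQ-treated Bmal1 Mye-/- replicate 1 was at 1.52 CPM of Arntl, above 4 of the 5 IMQ-treated WT libraries.

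Against this neutrophil RNA the members were scarce. Scaled by exon length, group means of Prss34 were 1.37 to 4.02 CPM per kilobase, those of Mcpt8 0.862 to 2.64, those of Ms4a2 0.288 to 0.587, those of Cpa3 0.0817 to 0.434 and those of Fcer1a 0.0261 to 0.164. S100a8 on the same scale was at 32300 to 38200 CPM per kilobase. Over all 20 libraries the files hold 4014 reads of Prss34, 1783 of Mcpt8, 1334 of Ms4a2, 371 of Cpa3 and 134 of Fcer1a. Prss34, Mcpt8, Cpa3 and Ms4a2 passed the filter on low counts and were among the 14030 genes fitted, and Fcer1a did not pass.

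Prss34 (mm10 chr17:25298394-25300165, plus strand), a tryptic serine protease of basophil granules, was the most abundant member. In untreated WT replicates 1 to 5 it was at 1.78, 1.19, 1.55, 3.64 and 4.82 CPM, and in untreated Bmal1 Mye-/- at 9.23, 2.69, 0.505, 1.48 and 1.66 CPM. IMQ-treated WT libraries had 1.54, 1.77, 1.22, 1.27 and 2.56 CPM, and IMQ-treated Bmal1 Mye-/- libraries 7.58, 8.53, 1.88, 1.38 and 5.16 CPM. The highest library of all was an untreated Bmal1 Mye-/- one, replicate 1, with 664 reads. With IMQ, 3 of 5 Bmal1 Mye-/- libraries lay above the highest WT library and the other two lay among the WT values. Group means were 2.6 ± 1.56, 3.11 ± 3.51, 1.67 ± 0.545 and 4.9 ± 3.24 CPM (SD, n = 5) in the same order.

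Mcpt8 (chr14:56082166-56085273, minus strand), the protease that is used as a marker of mouse basophils, had the same high libraries. It was at 0.667, 0.354, 0.685, 1.23 and 1.64 CPM in untreated WT and at 2.97, 0.971, 0.539, 0.356 and 0.613 CPM in untreated Bmal1 Mye-/-. With IMQ it was at 1.12, 0.815, 0.84, 0.687 and 0.836 CPM in WT and at 4.57, 3.52, 1.65, 0.649 and 2.78 CPM in Bmal1 Mye-/-. Here 4 of 5 IMQ-treated Bmal1 Mye-/- libraries lay above all IMQ-treated WT libraries, and the remaining one, replicate 4, lay below them all. The means were 0.914 ± 0.512, 1.09 ± 1.08, 0.86 ± 0.16 and 2.63 ± 1.54 CPM (SD, n = 5).

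Cpa3 (chr3:20215620-20242181, minus strand), the carboxypeptidase, was counted in small numbers. Untreated WT libraries had 10, 5, 4, 14 and 25 reads, and untreated Bmal1 Mye-/- libraries 41, 17, 1, 0 and 8. With IMQ, WT libraries had 0, 15, 3, 5 and 10 reads and Bmal1 Mye-/- libraries 69, 39, 27, 12 and 66. As CPM, 4 of 5 IMQ-treated Bmal1 Mye-/- libraries exceeded the highest IMQ-treated WT library (0.291 CPM), and replicate 4 did not. Group means were 0.172 ± 0.133, 0.181 ± 0.229, 0.124 ± 0.116 and 0.659 ± 0.332 CPM (SD, n = 5). A count of 0 allows up to 0.0561 CPM in untreated Bmal1 Mye-/- replicate 4 and 0.0624 CPM in IMQ-treated WT replicate 1 (3 counts per library, counting error only).

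**Figure D1:**
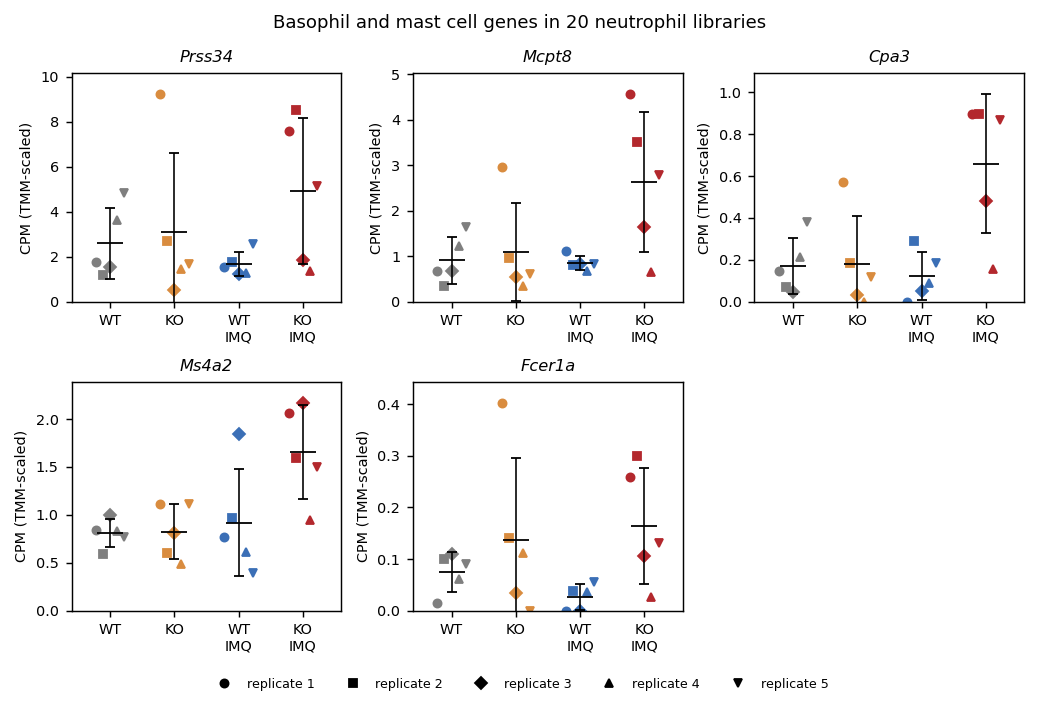
CPM after TMM scaling of the 5 genes (vertical axis, starting at 0, own range per gene) in the 4 groups (WT and KO, the Bmal1 Mye-/- mice, untreated or with IMQ), with 1 marker per library, its shape giving the replicate number, and black bars for the mean and SD of 5 libraries. IMQ-treated KO libraries 1, 2 and 5 were high for Prss34 (5.16 to 8.53 CPM), Mcpt8 and Cpa3, and untreated KO replicate 1 (9.23 CPM of Prss34) stood above the other 4 of its group.

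Ms4a2 (chr19:11615523-11623719, minus strand), the beta chain of the IgE receptor, had a narrower fold range than Prss34 and Mcpt8 in 3 of the 4 groups, but spanned 4.71-fold in IMQ-treated WT, where Prss34 spanned 2.09-fold and Mcpt8 1.64-fold. It was at 0.845, 0.595, 1.00, 0.834 and 0.773 CPM in untreated WT and at 1.11, 0.604, 0.808, 0.487 and 1.11 CPM in untreated Bmal1 Mye-/-. With IMQ the WT libraries had 0.769, 0.971, 1.84, 0.616 and 0.39 CPM and the Bmal1 Mye-/- libraries 2.06, 1.59, 2.17, 0.948 and 1.5 CPM. Among Bmal1 Mye-/- mice, 4 of 5 IMQ-treated libraries lay above the highest untreated one, whereas WT IMQ replicates 2 and 3 lay within the range of the IMQ-treated Bmal1 Mye-/- libraries. Means were 0.81 ± 0.147, 0.824 ± 0.286, 0.917 ± 0.556 and 1.65 ± 0.489 CPM (SD, n = 5). Of the 50-base windows of its transcripts, 2.1% also occur in Ms4a4b, and those of the other members occur in no other gene.

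Fcer1a (chr1:173221284-173227214, minus strand), the IgE-binding alpha chain, was near the limit of detection. Reads numbered 1, 7, 9, 4 and 6 in untreated WT, and 29, 13, 1, 6 and 0 in untreated Bmal1 Mye-/-. With IMQ they numbered 0, 2, 0, 2 and 3 in WT and 20, 13, 6, 2 and 10 in Bmal1 Mye-/-. All 5 IMQ-treated WT libraries had at most 3 reads, and 4 of 5 IMQ-treated Bmal1 Mye-/- libraries exceeded the highest of them as CPM. The group means were 0.0751 ± 0.0384, 0.138 ± 0.159, 0.026 ± 0.0249 and 0.164 ± 0.113 CPM (SD, n = 5). The 0 counts allow 0.0438 CPM in untreated Bmal1 Mye-/- replicate 5 and 0.0624 and 0.0525 CPM in IMQ-treated WT replicates 1 and 3.

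The first comparison asks how the genotypes differ under IMQ. The log2 fold change of Bmal1 Mye-/- against WT, both with IMQ, was 1.55 for Prss34 (standard error, SE, 0.63), 1.61 for Mcpt8 (SE 0.55), 2.39 for Cpa3 (SE 0.88) and 0.85 for Ms4a2 (SE 0.35). Their median was 1.58, beside 0.0335 over all genes fitted. At an adjusted p under 0.05 in edgeR's quasi-likelihood test, 0 of the 4 were called, and 0.292% of all genes were called in this comparison (0.185% higher, 0.107% lower). No member was free of overlap between the groups, beside 0.627% of all genes that lay wholly higher in Bmal1 Mye-/- and 0.442% wholly lower. With 1 library left out at a time the values stayed positive, from 1.27 to 1.79 for Prss34, 1.33 to 1.87 for Mcpt8, 2.09 to 2.97 for Cpa3 and 0.67 to 1.27 for Ms4a2. The upper end for Ms4a2 came without WT IMQ replicate 3, where 1 of the 4 members and 21.9% of all genes were called. In a fit without the filter Fcer1a was at 2.56 (SE 0.99).

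In untreated mice the same genotype comparison gave log2 fold changes of 0.27 for Prss34 (SE 0.61), 0.27 for Mcpt8 (SE 0.54), 0.14 for Cpa3 (SE 0.85) and 0.03 for Ms4a2 (SE 0.35), with a median of 0.21. In edgeR's test 0 of the 4 were called, beside 0.207% of all genes (0.107% higher, 0.0998% lower). All 4 overlapped between the groups, and 0.791% and 0.727% of all genes lay wholly higher or lower. The 3 protease values rested on untreated Bmal1 Mye-/- replicate 1. Without it they were -0.69, -0.54 and -0.90, and the median was -0.62.

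Within Bmal1 Mye-/- mice, IMQ-treated against untreated, the log2 fold changes were 0.64 for Prss34 (SE 0.61), 1.25 for Mcpt8 (SE 0.54), 1.79 for Cpa3 (SE 0.85) and 1.00 for Ms4a2 (SE 0.35), with a median of 1.13 beside 0.0237 for all genes. Of the 4, 1 was called higher, Ms4a2, where 14.4% of all genes were called higher and 9.04% lower. No member was free of overlap, while 10.8% of all genes lay wholly higher and 9.31% wholly lower. In 13 of 20 fits that left out 1 library 0 of the 4 were called, while 1612 to 4499 of all genes were called over the 20 fits. Without untreated replicate 1 or IMQ replicate 4, 2 of the 4 were called, beside 2063 of 14135 and 3804 of 14294 genes. With limma 2 were called, beside 2612 of 14030 genes. The labels do not state pairs, and replicate numbers were taken as paired here only from correlated residuals. By number, the IMQ-treated library was the higher one in 5 of 5 pairs for Mcpt8, Cpa3 and Ms4a2. For Prss34 and Fcer1a this held in 3 of 5. The share of all genes with such an order was not counted, and nothing is read from these counts. Without untreated replicate 1 the values for Prss34, Mcpt8 and Cpa3 were 1.61, 2.07 and 2.83. Within WT mice the same comparison gave -0.63 for Prss34 (SE 0.62), -0.09 for Mcpt8 (SE 0.55), -0.46 for Cpa3 (SE 0.88) and 0.18 for Ms4a2 (SE 0.35), with a median of -0.27. In that comparison 0 of the 4 were called, beside 3.95% of all genes (2.34% higher, 1.6% lower), and all 4 overlapped, while 3.11% and 3.31% of all genes lay wholly higher or lower. Single libraries decided these values too. Without untreated WT replicate 5, Prss34 was at -0.29, Mcpt8 at 0.22, Cpa3 at 0.04 and the median at 0.10. Cpa3 was at -1.03 without WT IMQ replicate 2, and Ms4a2 at -0.25 without WT IMQ replicate 3.

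The difference between both IMQ effects, Bmal1 Mye-/- minus WT, was 1.28 for Prss34 (SE 0.87), 1.34 for Mcpt8 (SE 0.77), 2.25 for Cpa3 (SE 1.22) and 0.82 for Ms4a2 (SE 0.50). The median was 1.31, and it was 2.20 without untreated Bmal1 Mye-/- replicate 1. In edgeR's quasi-likelihood test of this interaction 0 of the 4 members were called, beside 0 of all genes (0%). The 4 comparisons share groups with each other, so their values are not independent.

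**Figure D2:**
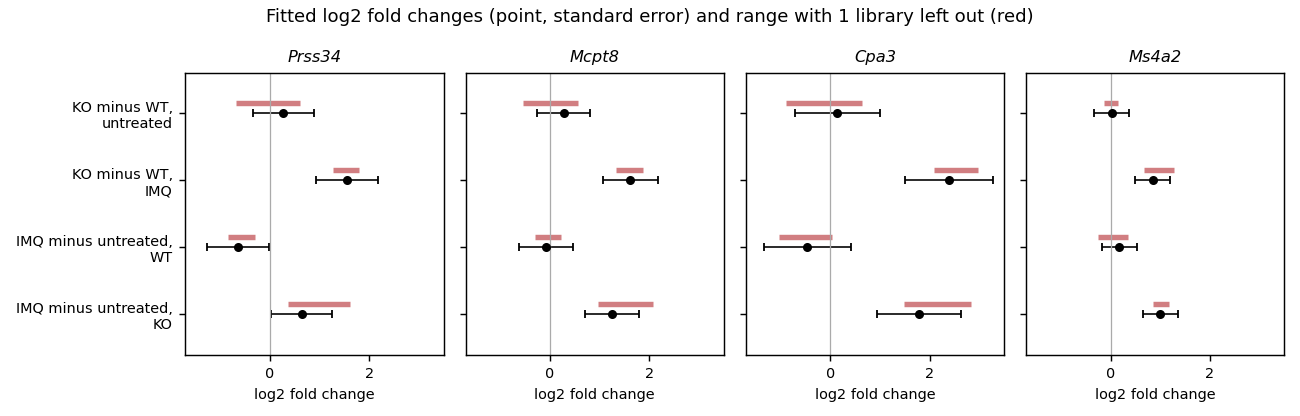
Fitted log2 fold changes (horizontal axis) of 4 genes in 4 comparisons (rows), where black points and bars give the estimate and its standard error and red bars the range over 20 fits that each left out 1 library. The IMQ-treated genotype comparison stayed above 0 for each of the 4 genes (lowest 0.67, Ms4a2), and the untreated one crossed 0 for each.

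The next comparison asks how far the members vary together between mice of the same group. Each group's mean was removed from log2 CPM, and the 10 pairs of members were correlated over the 20 libraries. Since the members were chosen with these libraries known, r and rho are given as a description and no p-value is drawn from them. Prss34 and Mcpt8 had r = 0.88 and rho = 0.90, Prss34 and Cpa3 r = 0.76 and rho = 0.81, and Mcpt8 and Cpa3 r = 0.73 and rho = 0.66. Without the 2 libraries farthest from the median of the first gene of the pair, r was 0.89, 0.70 and 0.58. With 1 library left out at a time it was 0.82 to 0.93, 0.67 to 0.83 and 0.63 to 0.87. IMQ-treated WT mice did not follow this order. There, replicate 1 had the highest Mcpt8 (1.12 CPM) and 0 reads of Cpa3, and replicate 5 had the highest Prss34 (2.56 CPM) with Mcpt8 (0.836 CPM) near the middle of its group.

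Fcer1a had r = 0.68 and rho = 0.60 with Prss34, and this r fell to 0.54 without untreated Bmal1 Mye-/- replicate 1. With Mcpt8 its r was 0.58 (rho 0.54) and with Cpa3 0.53 (rho 0.58). Its small counts leave its deviations imprecise.

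Ms4a2 had r = 0.41 and rho = 0.33 with Mcpt8, r = 0.23 and rho = 0.21 with Cpa3, r = 0.13 and rho = 0.13 with Prss34, and r = -0.09 and rho = -0.05 with Fcer1a. Whether these values are lower than those among the proteases was not tested. The SD of log2 CPM within groups was 0.54 for Ms4a2, 0.90 for Mcpt8, 1.06 for Prss34, 1.25 for Cpa3 and 1.00 for Fcer1a. Reads of Mcpt8 per read of Prss34 ranged from 0.241 to 1.07 over the 20 libraries (median 0.4265), a spread of 4.44-fold. Those of Ms4a2 per read of Prss34 ranged from 0.12 to 1.6 (median 0.4805), a spread of 13.3-fold. All libraries share their total count as denominator, and within groups the members' r with log2 depth was -0.24 to 0.23.

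**Figure D3:**
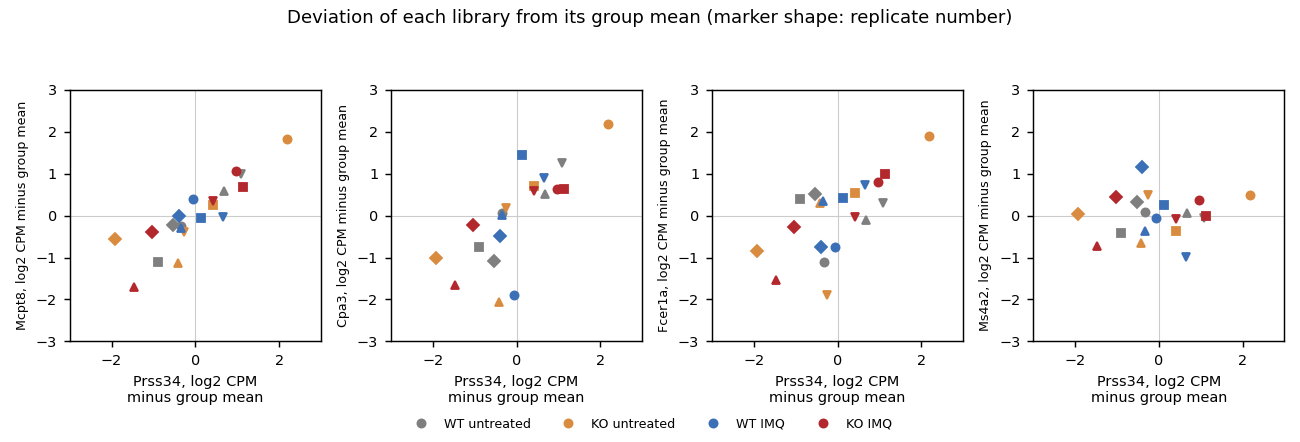
Deviation of each library's log2 CPM from its group mean for Prss34 (horizontal axes) against Mcpt8, Cpa3, Fcer1a and Ms4a2 (vertical axes), 20 libraries, coloured by group (KO, the Bmal1 Mye-/- mice) and shaped by replicate number. Mcpt8 (r = 0.88) and Cpa3 (r = 0.76) lie along a rising line, Fcer1a (r = 0.68) less so, and Ms4a2 (r = 0.13) shows no such line.

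Summed over the 3 protease genes, the highest libraries were IMQ-treated Bmal1 Mye-/- replicates 1, 2 and 5 (13, 12.9 and 8.8 CPM), untreated Bmal1 Mye-/- replicate 1 (12.8 CPM) and untreated WT replicate 5 (6.84 CPM). The lowest was untreated Bmal1 Mye-/- replicate 3 at 1.08 CPM, which was also the shallowest library. IMQ-treated Bmal1 Mye-/- replicate 1 had monocyte markers summing to 1520 CPM and progenitor markers to 1690 CPM, the highest of all libraries for both lists, and its part in the result was not tested. Leaving it out gave a median of 1.34 over the 4 members in the IMQ-treated genotype comparison.

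Some eosinophil markers were also higher in the group in which the members were high. In the IMQ-treated genotype comparison markers of other cells were not called higher, and neither were the members. Median log2 fold changes there were 1.34 for monocyte, 1.11 for progenitor and 0.914 for megakaryocyte markers. They were 0.611 for T and NK cell, 0.485 for B cell, 0.238 for plasmacytoid dendritic cell, -0.239 for neutrophil and -1.16 for erythroid markers. The 9 eosinophil markers summed to 43.8 to 213 CPM in IMQ-treated Bmal1 Mye-/- (median 123) and to 21.7 to 42.8 CPM in IMQ-treated WT (median 35.8), without overlap, and to 37.9 to 123 and 49.4 to 143 CPM in untreated WT and Bmal1 Mye-/-. Of these 9 genes, 3 were called higher in the IMQ-treated genotype comparison, beside 0.185% of all genes. They were Epx at 2.97 (SE 0.62, adjusted p = 0.0439), Prg2 at 2.54 (SE 0.50, adjusted p = 0.0268) and Prg3 at 3.59 (SE 0.66, adjusted p = 0.0182), log2 fold changes from edgeR's quasi-likelihood fit with p adjusted over all genes. These encode granule proteins of eosinophils. Not called were Ear1 at 2.73, Ear6 at 2.24, Il5ra at 0.37, Ccr3 at 0.06, Siglecf at -0.05 and Ear2 at -0.17. The median of the 9 genes was 2.24. Prg2 (mean 76.1 CPM) and Epx (27.8 CPM) weighed most in the sum in IMQ-treated Bmal1 Mye-/-. Of the 6 monocyte and 9 progenitor markers 0 were called in that comparison, while for IMQ in Bmal1 Mye-/- mice 4 of the 6 monocyte markers were called higher, beside 14.4% of all genes. The monocyte sum did not rise in most of those mice, with 1520, 554, 146, 250 and 112 CPM in IMQ-treated Bmal1 Mye-/- replicates 1 to 5 against 267 to 366 CPM in untreated ones, and Csf1r of that list was at -1.03 (SE 0.55, not called). The part of these cells in the members' levels was not tested.

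Genes of the mature mast cell were almost absent. Of 9 mast cell protease genes (Cma1, Cma2, Mcpt1, Mcpt2, Mcpt4, Mcpt9, Tpsb2, Tpsab1 and Tpsg1) 0 passed the filter, and together they had 0 to 19 reads per library. Tpsg1, a transmembrane tryptase, held 58 of their 86 reads over all libraries. Cma1, the mast cell chymase, had 5 reads in total, Tpsb2, a tryptase, had 1, and Mcpt4, another chymase, had 0. Il4, a cytokine that basophils secrete, had 19 reads in 8 libraries. Of these reads, 12 were in IMQ-treated Bmal1 Mye-/-, where replicate 5 alone held 8. Cd200r3, a surface receptor of basophils and mast cells, had 92 reads in 14 libraries. Its reads numbered 15 in untreated WT and 37 in untreated Bmal1 Mye-/-, and with IMQ 14 and 26.

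The mast cell proteases belong to a list of 35 further genes of both lineages, of which 19 passed the filter. Of these 19, 13 were above Prss34 in mean CPM over the 20 libraries, so that much of the list is RNA that these neutrophil preparations hold in larger amounts than the members. Hdc, the enzyme that makes histamine, was at 1110 ± 227, 1360 ± 144, 1050 ± 391 and 929 ± 372 CPM (SD, n = 5) in untreated WT and Bmal1 Mye-/- and then in both genotypes with IMQ. Kit, the stem cell factor receptor, averaged 26.6, 23.5, 19.7 and 15.7 CPM in that order. Gata1, a transcription factor of erythroid, megakaryocytic, eosinophil and mast cells, averaged 5.62, 6.33, 6.23 and 3.6 CPM. In edgeR's fit of the 4 groups 0 of these 3 genes were called in any comparison, while Kit was called for IMQ in Bmal1 Mye-/- by DESeq2, in the 2-group fit, and with edgeR when IMQ-treated replicate 3 of WT or replicate 2 of Bmal1 Mye-/- was left out.

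The effect of IMQ on this list was examined in each genotype. In WT mice 2 of 19 were called higher and 0 lower, beside 2.34% and 1.6% of all genes. Csf2rb2, the second mouse beta chain for interleukin 3, rose by 0.96 (SE 0.15, adjusted p = 0.0069), and its 5 IMQ-treated WT libraries at 83.5 to 128 CPM lay above the untreated ones at 41.4 to 59.5. Cd244, a receptor of the SLAM family, rose by 0.86 (SE 0.22, adjusted p = 0.0377), but it no longer passed without either WT IMQ replicate 2, 3 or 4, without any 1 of the untreated WT libraries or without untreated Bmal1 Mye-/- replicate 5 (adjusted p of 0.0502 to 0.116), nor without TMM factors, without the filter, with limma or in a 2-group fit (0.0506 to 0.0837). These values are log2 fold changes from edgeR's quasi-likelihood fit, with p adjusted over all genes. Without WT IMQ replicate 5, 4 of the 19 were called, beside 1989 of all 14273 genes fitted there, against 554 of 14030 with all libraries.

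In Bmal1 Mye-/- mice 2 of 19 were called higher with IMQ and 2 lower, beside 14.4% and 9.04% of all genes, so the share called, 4 of 19, was no higher than the 23.5% of all genes called in either direction. Il3ra, the alpha chain of the interleukin 3 receptor, was at 16.1 to 17.7 CPM in the untreated libraries and rose with IMQ to between 23.0 and 51.1 CPM, without overlap (log2 fold change 1.20, SE 0.24, adjusted p = 0.00556, edgeR). In WT its fold change was 0.84 (SE 0.23, adjusted p = 0.0505, edgeR). It was called there with DESeq2 (adjusted p = 0.0103) and with RLE factors (adjusted p = 0.0466, edgeR), and in 4 of 20 fits that left out 1 library, but was at 0.49 without WT IMQ replicate 3. The interaction was 0.37 (SE 0.33, adjusted p = 0.66, edgeR). Csf2rb2 rose by 0.44 (SE 0.15, adjusted p = 0.0438, edgeR), a call lost without any 1 of 7 libraries, among them untreated replicate 4 (adjusted p = 0.105), and with DESeq2 (adjusted p = 0.0527), RLE factors, no filter or a 2-group fit. Mitf, a transcription factor of mast cells and other lineages, fell by 1.11 (SE 0.29, adjusted p = 0.0152, edgeR). Its untreated libraries were at 8.85 to 14.5 CPM and the IMQ-treated ones at 2.58 to 7.1 CPM, without overlap. Il1rl1, the interleukin 33 receptor of mast cells, basophils and other cells, fell by 0.72 (SE 0.23, adjusted p = 0.0298, edgeR). It was at 4.91 to 7.57 CPM in untreated and 2.78 to 5.22 CPM in IMQ-treated libraries, and no longer passed without untreated replicate 1 or 5 or IMQ replicate 1, 4 or 5, nor without TMM factors (adjusted p = 0.061, edgeR) or with limma.

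Between the genotypes 0 of 19 were called in either direction, untreated or with IMQ, and 0 in the interaction, both by edgeR's quasi-likelihood test and by DESeq2. At an unadjusted p under 0.05 the edgeR counts were 2, 3 and 3. The median of the list in the IMQ-treated genotype comparison was -0.13, beside 1.58 for the members, and 6 of the 19 had a positive value. Among these was Gata2, a transcription factor required for basophils and mast cells, at 0.27, 0.447, 0.735, 0.317 and 0.632 CPM in IMQ-treated WT and 3.02, 1.56, 1.24, 0.169 and 0.776 CPM in IMQ-treated Bmal1 Mye-/-. Of the latter 4 lay above all WT libraries and 1, replicate 4, below them. Its log2 fold change was 1.49 (SE 0.55, adjusted p = 0.212, edgeR), in a fit where 0.292% of all genes were called. Without WT IMQ replicate 3 it was 1.70 (adjusted p = 0.048, edgeR), and 3 of the 19 (Gata2, Il3ra and Kit) were called, beside 21.9% of all genes. Without Bmal1 Mye-/- IMQ replicate 4 it was 1.78 (adjusted p = 0.0498, edgeR), and 1 of the 19 was called, beside 1.96% of all genes. Without Bmal1 Mye-/- IMQ replicate 1, the library with the most monocyte and progenitor marker RNA, it was 0.96.

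**Figure D4:**
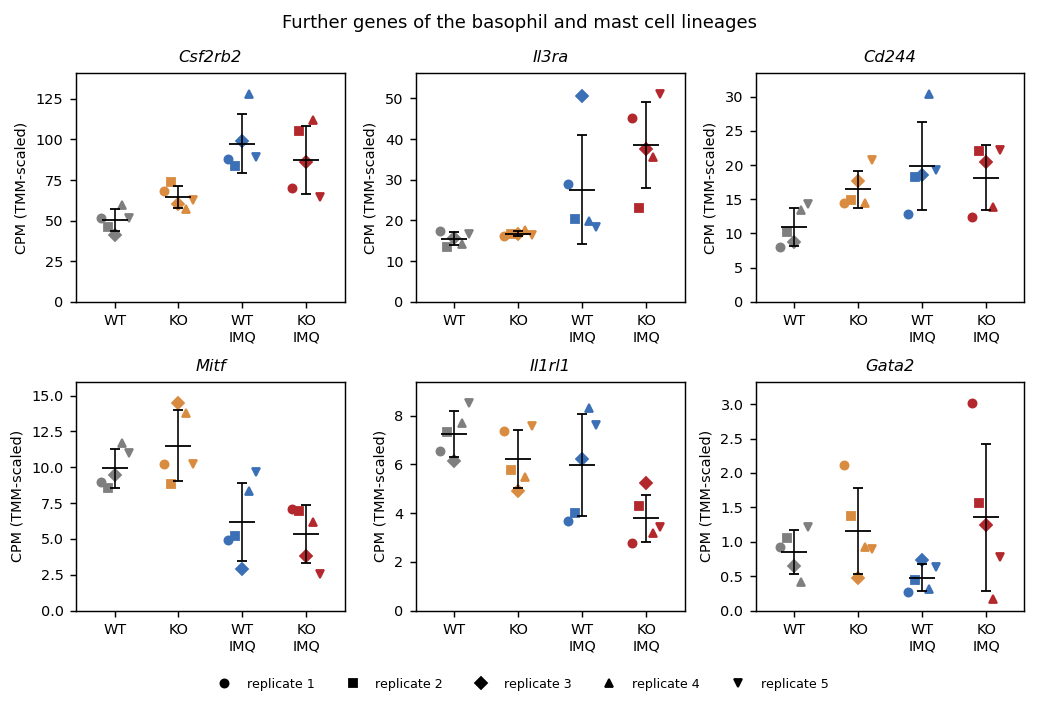
CPM after TMM scaling (vertical axes, starting at 0) of 6 further basophil and mast cell lineage genes in the 4 groups (KO, the Bmal1 Mye-/- mice), with 1 marker per library shaped by replicate number and black bars for the mean and SD of 5 libraries. IMQ-treated KO libraries of Il3ra (23.0 to 51.1 CPM) lie above and those of Mitf (2.58 to 7.1 CPM) below the untreated KO libraries, and for Gata2 replicate 1 is highest (3.02 CPM).

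Fcer1g, the gamma chain of the IgE receptor, was at 562 ± 36.2, 544 ± 45.2, 543 ± 113 and 457 ± 89.6 CPM (SD, n = 5) in the 4 groups in the order above and was called in no comparison. Per kilobase it was at 523 to 643 CPM, against 0.0261 to 0.164 CPM for the alpha chain and 0.288 to 0.587 CPM for the beta chain. Of 17 genes of the receptor's signalling path, Fcer1g among them, 0 were called for IMQ in WT, between the genotypes or in the interaction. For IMQ in Bmal1 Mye-/-, 1 was higher and 2 were lower, beside 14.4% and 9.04% of all genes. These, named after their values were seen, were the adaptor Lat2 at 1.35 (SE 0.34, adjusted p = 0.0126), the kinase Syk at -0.68 (SE 0.22, adjusted p = 0.0371) and the lipid phosphatase Inpp5d at -0.53 (SE 0.16, adjusted p = 0.0241), log2 fold changes from edgeR's quasi-likelihood test.

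The genes most like the members were sought by the Pearson r between their log2 CPM and the mean of the members' standardized log2 CPM over the 20 libraries, among the 14026 other genes fitted. The first 10 were Zfp764 (r = 0.80), Cyp11a1 (0.79), Gpr171 (0.78), Rps15a-ps6 (0.78), Cmtm3 (0.77), E2f5 (0.77), Zfp704 (0.76), 6720489N17Rik (0.75), Syt13 (0.75) and Mfge8 (0.75). Each had its highest group mean in IMQ-treated Bmal1 Mye-/-, which the choice by likeness to the members favours, and with group means removed r was 0.59 to 0.77. Cyp11a1, a steroid-synthesis enzyme, was the only one of these 10 that is on the list of 35, with 2 to 40 reads per library in IMQ-treated Bmal1 Mye-/- and 0 to 14 elsewhere. Rps15a-ps6 is a ribosomal protein pseudogene, whose reads could belong to its parent gene. Of the 10, 5 were among the first 10 by Spearman's rho and 2 with group means removed, so the order depends on the measure. Gata2 stood at position 125 (r = 0.66), and at position 20 with group means removed (r = 0.73). Itga2, an integrin chain carried by basophils, stood at position 1930 (r = 0.46), and at position 2 with group means removed (r = 0.79). Its group mean was 0.29 CPM in untreated and 0.148 CPM in IMQ-treated Bmal1 Mye-/-, where 1 library held 40 of its 50 reads. Other genes of the list of 35 were unlike the members. Among them were Crlf2 (r = -0.54, position 13172), Hdc (r = -0.33, position 10771), Il1rl1 (-0.30), Mitf (-0.28) and Kit (-0.27). Hpgds (0.37) and Il3ra (0.36) lay between.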

How the data were processed

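One poly(A) library was sequenced per mouse, and the deposited files give raw read counts per gene, made by the authors without normalization. Per the labels' processing notes, reads were aligned to mm10 with STAR 2.7.8a and counted with HTSeq 2.0.1 after bcl2fastq, whereas the study's methods name TopHat. The annotation and strand setting are not given in the sources used here. A merged table with identical counts was not used.

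Counts were analysed with edgeR 4.0.16 in R 4.3.3: filterByExpr (14030 genes kept), TMM factors (0.854 to 1.38), 1 quasi-likelihood model of the 4 groups and Benjamini-Hochberg adjustment at 0.05 over all genes fitted. The steps were tested on simulated counts. The p-values measure the spread between 5 mice per group. Gene positions come from GENCODE on mm10 and promoters from RefSeq (GRCm38.p6). All members and lists were chosen with earlier results of these data known. Named were the members, list genes called in any contrast and 11 lineage genes fixed by name, the 10 genes most like the members, Lyz2 and Arntl. Also named were the uncalled eosinophil markers, S100a8 and Csf1r. Itga2, Crlf2 and Hpgds, called in no contrast, were named for their r with the members, after these values were seen.

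Whether replicate numbers pair the libraries was checked by correlating the residuals of equal numbers. In Bmal1 Mye-/- mice, IMQ-treated and untreated, all 5 correlations exceeded 0.1 (0.128 to 0.426). The numbers were taken as paired there, although the labels do not state pairs. The correlations were 0.0728 to 0.384 in WT, -0.441 to 0.206 between untreated and -0.497 to 0.343 between IMQ-treated genotypes. For IMQ against untreated, 3 of 5 treated libraries correlated best with their own number, in WT as in Bmal1 Mye-/-. Alternatives were RLE or no factors, DESeq2 1.42.0, limma 3.58.1 on log2(CPM + 0.1), no filter, at least 10 counts in every library, fits of 2 groups, a replicate block and leaving out libraries. Reads on genes were 37.41% to 41.95% of a library, and 51.85% to 57.79% lay on no feature, which were left out.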

Additional observations from a re-analysis of the deposited data

Results flagged for a closer look

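Of the levels examined, 9 values lay far from the other 4 libraries of their group, among 108 gene-by-group sets of 5 libraries (27 genes). For normally distributed values chance gives about 1 in 20. That these CPM values are so distributed was not checked, so the number of flags is not compared with that rate. Untreated Bmal1 Mye-/- replicate 1 was high for Prss34 (9.23 CPM, others 0.505 to 2.69), Mcpt8 (2.97 CPM, others 0.356 to 0.971) and Cyp11a1 (0.195 CPM, others 0 to 0.0216). Cyp11a1 was also high in untreated WT replicate 5 (0.0909 CPM, others 0.0122 to 0.0296) and in IMQ-treated WT replicate 1 (0.166 CPM, others 0 to 0.0388). These flagged Cyp11a1 values rest on few reads, 14, 6 and 8 in the order given. IMQ-treated WT replicate 3 had 15.3 CPM of Gata1 (others 2.79 to 5.97) and erythroid markers summing to 133 CPM, above every other library, whose part in it was not tested. IMQ-treated WT replicate 5 had 0.204 CPM of Cd200r3 (others 0 to 0.0525). IMQ-treated Bmal1 Mye-/- replicate 1 had 1.58 CPM of E2f5 (others 0.363 to 0.713) and 7.27 CPM of Mfge8 (others 1.01 to 2.14), and this library also held the most monocyte and progenitor RNA by their marker sums.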

How the results depend on the processing

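Without TMM factors the median of all genes moved to 0.155 for IMQ in Bmal1 Mye-/-, 0.229 for the genotypes with IMQ and 0.201 in the interaction, and the members' medians there were 1.30, 1.87 and 1.54. The members' median in the IMQ-treated genotype comparison ran from 1.38 (replicate block) to 1.87 over the alternatives that kept all libraries. That of the untreated genotypes was 0.21 and turned to -0.15 with the replicate block and -0.07 with limma. With 1 library left out it ran from -0.62 to 0.58, and that of the interaction from 1.00 to 2.20. For IMQ in Bmal1 Mye-/- 0 of the members were called without TMM factors and without the filter, beside 3188 of 14030 and 2588 of 20990 genes. With limma 2 were called, beside 2612 of 14030 genes.

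Of the 19 further lineage genes, 2 were called for IMQ in WT. This was 1 without TMM factors, with limma, without the filter and in the 2-group fit, 3 with RLE factors and with DESeq2, 1 to 4 with 1 library left out, and 4 without WT IMQ replicate 5 and Bmal1 Mye-/- IMQ replicate 2 together, a choice made after seeing the data. Of all genes, 554 of 14030 were called in the main fit, 537 with RLE factors, 1480 with DESeq2 and 2129 of 14091 without those 2 libraries. For IMQ in Bmal1 Mye-/- the 4 calls, beside 3292 of 14030 genes, became 2 to 5 with 1 library left out. They were 2 without untreated replicate 5, beside 2417 of 14266 genes, and 5 without WT IMQ replicate 3, beside 4499 of 14263. For the genotypes with IMQ 0 became 0 to 3, the 3 without WT IMQ replicate 3, where 21.9% of all genes were called. With the replicate block the counts were 2, 5, 0, 0 and 0, where the fifth gene was Cyp11a1, and no other call among the 19 changed. All genes called in that fit numbered 190, 3114, 26, 38 and 0 of 14030. Pairs of members at an adjusted permutation p under 0.05 numbered 4, and 3 to 7 with 1 library left out, a count from which nothing is read, since the members were chosen on these libraries. The r of Ms4a2 and Fcer1a (-0.09) was 0.01 without TMM factors, 0.02 without the 2 libraries named above and -0.30 to 0.05 with 1 left out, and that of Prss34 and Ms4a2 (0.13) ran from -0.02 to 0.25, and was 0.26 without those 2 libraries. Depth limits Cpa3 and Fcer1a most, with at most 69 and 29 reads in a library. The causes were not tested.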
